A study of Mus musculus with 24 samples.

Results

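A set of 9 developmental transcription factors whose expression in the embryo is tied to body position were followed in cultured fat precursors. The genes were *Wt1*, *Tcf21*, *Zic1*, *Tbx15*, *En1*, *Gata4*, *Gata6*, *Meox2* and *Tbx5*, and each of the 9 symbols matched exactly 1 of 49452 rows of the deposited expression table. The rule lists the members by name and holds no measured value, but they were chosen with earlier results of these data known. RNA had been sequenced from 24 libraries of primary (1°) cells of the stromal-vascular fraction (SVF), the non-fat cells that remain when lipid-filled adipocytes are removed, of interscapular brown fat (BAT) and perigonadal visceral white fat (vWAT). The 8 groups of 3 libraries combined depot, siRNA (siCtrl, a non-targeting control, or siH19, directed at the lincRNA *H19*) and day of differentiation (d0 or d3). The study asked what *H19* silencing does in precursors of both depots.

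The mice of both depots were male C57BL/6 animals of 6 to 8 weeks, with no engineered allele named for these libraries, and BAT of several animals was pooled where cell numbers required it. siRNAs were introduced by nucleofection in every group, controls included, so that no library represents untransfected cells. The titles of all siH19 libraries carry siH19_3, read here as a single numbered siRNA. Effects of that siRNA other than on *H19* cannot be told apart. The labels carry the letters siKO in the titles of the siCtrl libraries, and they do not say whether the 3 libraries of a group came from separate mice or cultures, so that p-values measure the spread between these libraries, which may be technical. Depot cannot be told apart from the digestion enzymes and the differentiation media, which the study's methods give differently for BAT and vWAT, or from the sample series in the descriptions, which runs from 1 name stem for BAT and another for vWAT. Values are FPKM (fragments per length of transcript and per total of mapped fragments), a scale per transcript length on which levels of different genes can be compared. The number of fragments per library is unknown, and relative depth read from the lowest values was 0.825 to 0.984 in BAT and 1.02 to 1.17 in vWAT. The targeted gene *H19* had a mean of 130.3 FPKM in siCtrl and 4.36 FPKM in siH19 cells of BAT at d0 and of 89.8 and 13.7 FPKM at d3, and in vWAT the means were 11.7 and 1.21 FPKM at d0 and 8.59 and 0.528 FPKM at d3.

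Fat depots arise from different parts of the embryonic mesoderm. Interscapular brown fat descends largely from the dermomyotome of the somites, a sheet that also gives dorsal dermis and back muscle, whereas visceral fat is linked to the lateral plate mesoderm and to the mesothelium that lines the body cavity. Precursors keep a part of these positional programmes in culture, and *Zic1* and *En1* on the brown side and *Wt1* and *Tcf21* on the visceral side are widely used as marks of origin. SVF cultures are mixtures, and in such bulk RNA fewer cells of a type and less RNA per cell cannot be told apart.

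Promoter sequences from RefSeq (GRCm38.p6) were matched for 4 of the 9 members, among them *Tcf21*, high in vWAT, and *Zic1*, *En1* and *Meox2*, high in BAT. No promoter sequence was analysed here for *Wt1*, *Tbx15*, *Gata4*, *Gata6* and *Tbx5*, which does not show that RefSeq lacks them. The 4 sequences are shown because they were the ones matched, and their genes lay on opposite sides of the depot difference. The start regions can be read side by side, but the 4 were not chosen as a contrast. Each window holds 250 bases before and 50 bases after the annotated start and is written 5′ to 3′ on the strand of the gene, with CpG dinucleotides in capitals. The windows are chr10:22820094-22820393 (minus strand) for *Tcf21*, chr9:91365719-91366018 (minus strand) for *Zic1*, chr1:120602237-120602536 (plus strand) for *En1* and chr12:37108290-37108589 (plus strand) for *Meox2*.
Tcf21: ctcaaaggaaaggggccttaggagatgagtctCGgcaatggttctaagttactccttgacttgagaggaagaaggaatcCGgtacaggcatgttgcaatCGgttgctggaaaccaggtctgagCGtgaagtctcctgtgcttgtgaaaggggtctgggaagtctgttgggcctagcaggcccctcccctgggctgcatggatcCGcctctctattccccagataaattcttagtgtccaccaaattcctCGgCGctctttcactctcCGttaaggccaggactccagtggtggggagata
Zic1: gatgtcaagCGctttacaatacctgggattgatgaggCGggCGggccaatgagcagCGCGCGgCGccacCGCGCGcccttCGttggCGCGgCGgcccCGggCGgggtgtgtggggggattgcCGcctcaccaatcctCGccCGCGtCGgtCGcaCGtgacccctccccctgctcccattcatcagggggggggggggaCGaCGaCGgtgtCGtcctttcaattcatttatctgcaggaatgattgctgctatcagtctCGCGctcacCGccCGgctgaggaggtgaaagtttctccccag
En1: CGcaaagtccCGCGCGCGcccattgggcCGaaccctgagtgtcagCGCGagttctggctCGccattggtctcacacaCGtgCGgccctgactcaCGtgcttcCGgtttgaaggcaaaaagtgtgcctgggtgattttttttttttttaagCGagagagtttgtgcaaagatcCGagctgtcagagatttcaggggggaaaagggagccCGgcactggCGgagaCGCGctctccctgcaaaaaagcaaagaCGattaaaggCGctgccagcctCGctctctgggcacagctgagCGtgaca
Meox2: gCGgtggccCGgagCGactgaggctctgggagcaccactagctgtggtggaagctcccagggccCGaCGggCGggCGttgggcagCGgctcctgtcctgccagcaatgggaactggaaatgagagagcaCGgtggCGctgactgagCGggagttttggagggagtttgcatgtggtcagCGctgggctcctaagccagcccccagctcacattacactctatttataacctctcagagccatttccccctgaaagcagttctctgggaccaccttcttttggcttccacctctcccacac
The *Zic1* window held 31 CpG, the *En1* window 23, the *Meox2* window 12 and the *Tcf21* window 8, against a median of 7 over 32851 promoter windows of the same length, of which 10.6%, 21.5%, 39.6% and 48.6% held at least as many. Short motifs were searched on both strands, namely the E-box CANNTG, the GATA motif AGATAA, the homeodomain motif TAATTA and the T-box half-site AGGTGT, and no match of a motif overlapped that of another. The E-box, found in 72.3% of all windows, had 3 matches in *En1*, 1 in *Zic1* and 1 in *Meox2* and none in *Tcf21*. AGATAA, found in 11.2% of all windows, had 1 match each in *Tcf21* and *Zic1*. TAATTA (5.3% of all windows) and AGGTGT (13.7%) had no match in the 4 windows.

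**Figure D1:**
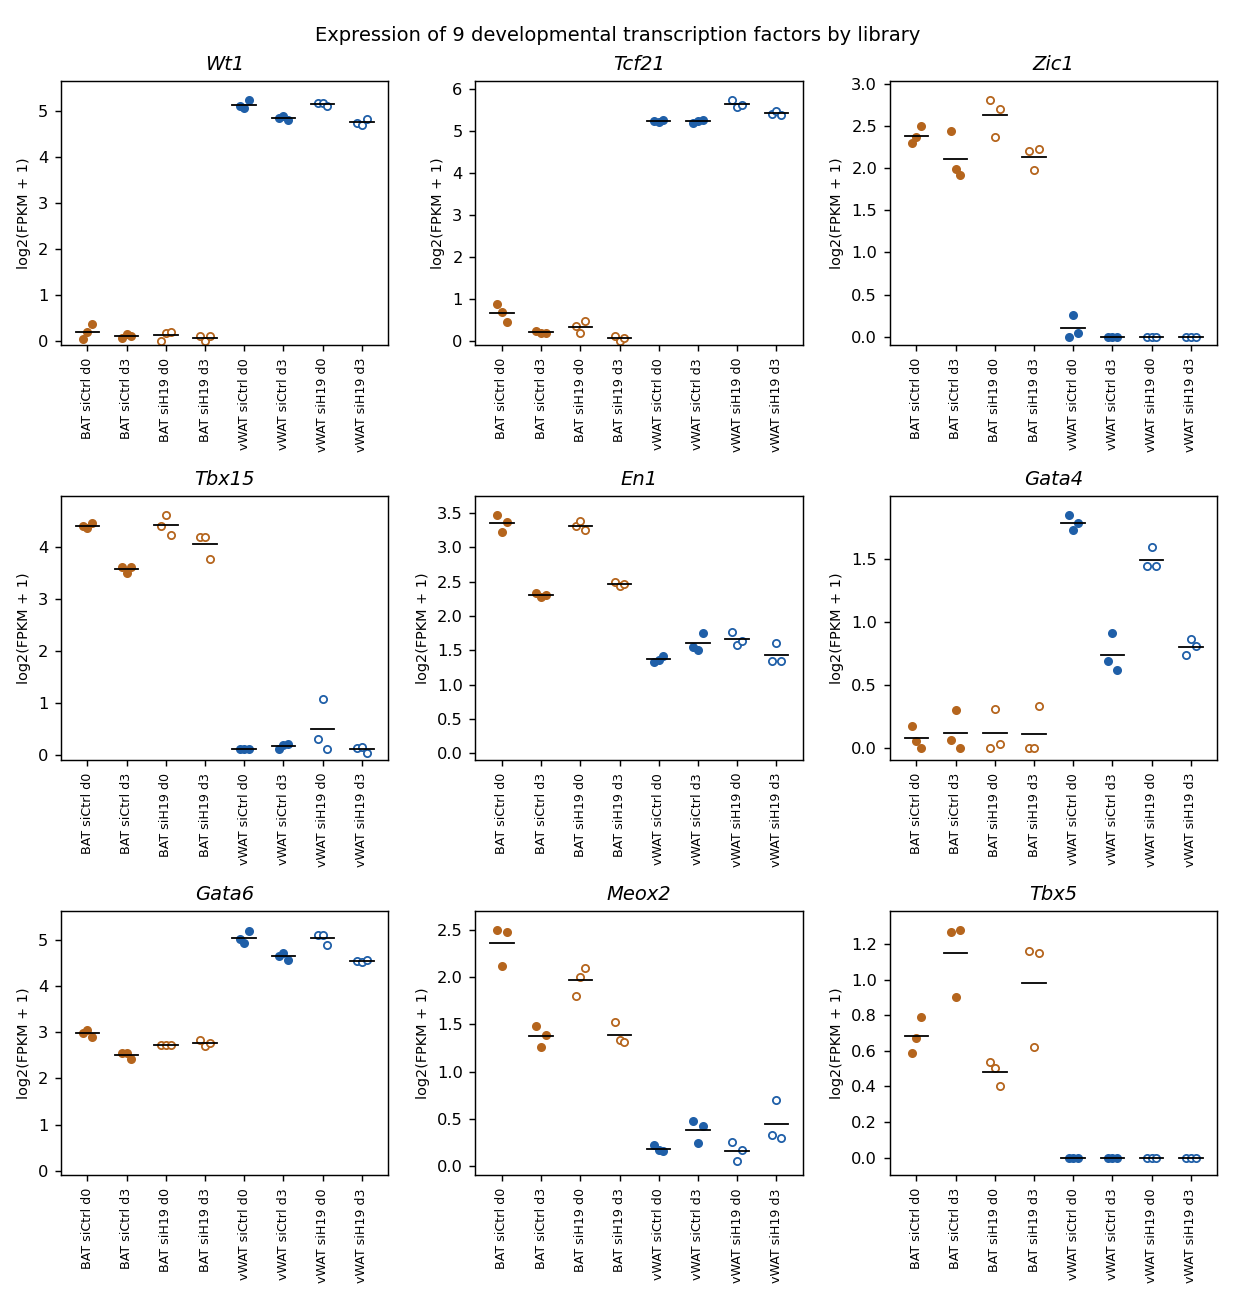
Level of each of the 9 genes in the 24 libraries, as log2(FPKM + 1), with 1 panel per gene and its own axis. Points are libraries (brown for BAT, blue for vWAT, open for siH19) and bars are means of 3. *Wt1*, *Tcf21*, *Gata4* and *Gata6* were higher in each vWAT than in each BAT library, and *Zic1*, *Tbx15*, *En1*, *Meox2* and *Tbx5* the reverse.

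*Wt1*, *Tcf21*, *Gata6* and *Gata4* were higher in vWAT, and *Tbx15*, *Zic1*, *En1*, *Meox2* and *Tbx5* higher in BAT, as the plot of levels by library shows. For none of the 9 genes did the 12 BAT libraries overlap the 12 vWAT libraries, and of all genes with at least 1 FPKM in at least 3 of the 24 libraries 7.6% showed no such overlap. Of the 9 genes, 8 were tested at d0 and 7 at d3, since a gene needed at least 1 FPKM in at least 3 of the 6 libraries compared, and each of those tested was called. A call required a limma p-value below 0.05 after adjustment by Benjamini and Hochberg, together with a change of 1.3-fold or more. Among all genes tested, BAT and vWAT differed for 31.2% in siCtrl cells at d0 (10.2% higher and 21% lower in BAT), 48.6% in siCtrl cells at d3 (16.5% and 32.1%), 30.4% in siH19 cells at d0 (9.82% and 20.6%) and 41.2% in siH19 cells at d3 (15.9% and 25.2%). Members listed near 0 in the other depot passed the filter only through the depot where they were high and therefore had to differ, so that the counts describe the genes and support nothing. Rescaling the libraries by a trimmed mean moved the median difference of all genes by up to 0.20 on the log2 scale, and raised the share of called genes that were higher in BAT from between 32.3% and 38.7% to between 45.2% and 55.8% over the 4 comparisons. The members kept their direction and call under it.

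*Wt1* encodes a zinc finger factor of the kidney, the gonad and the mesothelium, and lies on chromosome 2 (105126529 to 105173616, plus strand, GRCm38). In vWAT siCtrl cells it was at 33.3, 32.4 and 36.7 FPKM at d0 and at 27.7, 28.8 and 27.0 FPKM at d3. The 12 BAT libraries ranged from 0 to 0.283 FPKM with a median of 0.0767, and 2 of them were listed at 0. The difference (BAT minus vWAT) in log2(FPKM + 1) was -4.94 ± 0.11 (SE) at d0 (adjusted p = 6.3e-07) and -4.75 ± 0.072 at d3 (adjusted p = 1.4e-07) in siCtrl cells, and -5.05 and -4.69 in siH19 cells. The antisense gene *Wt1os* lies 19 bases before *Wt1* on the opposite strand. It was listed at 0 in all 12 BAT libraries and at group means of 1.37 to 2.59 FPKM in vWAT.

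*Tcf21* encodes a basic helix-loop-helix factor of visceral mesoderm, made in the kidney, lung and heart lining and in white fat precursors (chromosome 10, 22817279 to 22820128, minus strand). vWAT siCtrl libraries held 36.6, 36.3 and 37.4 FPKM at d0 and 35.3, 36.7 and 37.5 FPKM at d3. The 12 BAT libraries lay between 0 and 0.854 FPKM, and those of siCtrl at d0 were at 0.854, 0.605 and 0.374 FPKM. *Tcf21* had the largest difference of the members at d3, -5.03 ± 0.068 in siCtrl cells and -5.35 ± 0.074 in siH19 cells (limma adjusted p = 1.1e-07 and 2.2e-07), and was the highest of the 9 genes in each of the 4 vWAT groups. In vWAT siCtrl cells at d0 *Tcf21* averaged 36.8 ± 0.581 FPKM, *Wt1* 34.1 ± 2.25 FPKM and *Gata6* 32.1 ± 3.26 FPKM (SD, n = 3), and neighbours in this order overlapped, whereas in the other vWAT groups *Tcf21*, *Wt1* and *Gata6* followed each other in that order without overlap.

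*Gata6* encodes a GATA zinc finger factor of heart, gut endoderm and lateral mesoderm (chromosome 18, 11052510 to 11085635, plus strand). It was expressed in both depots, at 6.86, 7.23 and 6.45 FPKM in BAT and 31.3, 29.4 and 35.7 FPKM in vWAT (siCtrl, d0). The mean in vWAT was 4.69 times that in BAT at d0 and 5.16 times at d3 in siCtrl cells, and 5.68 and 3.84 times in siH19 cells. The log2 differences were -2.08 ± 0.086 and -2.15 ± 0.073 in siCtrl cells and -2.31 ± 0.076 and -1.78 ± 0.062 in siH19 cells (limma adjusted p between 1.6e-06 and 7.8e-06). A noncoding gene on the opposite strand, *1010001N08Rik*, overlaps *Gata6* by 504 bases in GENCODE M21, where *Gata6* starts further upstream (11052064) than in the deposited table, and was lower in BAT as well (0.801 against 7.85 FPKM in siCtrl cells at d0). Whether the counting used strand is not given in the sources used here, and reads of the shared bases cannot be told apart.

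*Gata4*, the relative of *Gata6* (chromosome 14, 63198922 to 63271692, minus strand), was the lowest of the vWAT genes. It was at 2.60, 2.32 and 2.44 FPKM in vWAT siCtrl cells at d0 and at 0.610, 0.877 and 0.536 FPKM at d3. BAT libraries reached at most 0.256 FPKM, and 5 of 12 were listed at 0. Its difference was -1.71 ± 0.092 in siCtrl cells and -1.38 ± 0.12 in siH19 cells at d0 (limma adjusted p = 2.1e-05 and 0.00017). At d3 it did not pass the filter, and without a filter the differences were -0.62 and -0.69 (adjusted p = 0.0076 and 0.0046).

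*Tbx15* encodes a T-box factor of dorsal dermis, skeleton, muscle and brown fat (chromosome 3, 99240381 to 99354259, plus strand), and was the highest of the 9 genes in each of the 4 BAT groups. In BAT siCtrl cells at d0 *En1*, *Gata6* and then *Zic1* and *Meox2* followed, of which *Zic1* (4.25 ± 0.381 FPKM) and *Meox2* (4.17 ± 0.733 FPKM, SD, n = 3) overlapped. BAT siCtrl libraries held 20.3, 19.7 and 21.3 FPKM at d0 and 11.3, 10.4 and 11.4 FPKM at d3. In vWAT, 11 of 12 libraries were at or under 0.247 FPKM and vWAT siH19 d0 replicate 2 was at 1.11 FPKM. The difference was 4.30 ± 0.071 at d0 and 3.41 ± 0.080 at d3 in siCtrl cells, and 3.92 ± 0.25 and 3.95 ± 0.13 in siH19 cells (limma adjusted p between 3.4e-07 and 4.7e-05). Without vWAT siH19 d0 replicate 2 the siH19 difference at d0 was 4.21. That library was listed at 0 for *Zic1*, *Tbx5*, *Myog* and *Comp*, at 0.0417 FPKM for *Shox2* and at 2.00 FPKM for *En1*, within the range of the other vWAT libraries. These genes are not a planned set, and the cause of the *Tbx15* value was not tested.

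*Zic1* encodes a zinc finger factor of the dorsal neural tube and the somites (chromosome 9, 91358058 to 91365810, minus strand). BAT siCtrl libraries were at 3.91, 4.17 and 4.66 FPKM at d0 and at 4.42, 2.96 and 2.78 FPKM at d3, while 10 of 12 vWAT libraries were listed at 0 and the others reached 0.195 FPKM. The difference was 2.29 ± 0.11 and 2.11 ± 0.15 at d0 and d3 in siCtrl cells and 2.63 ± 0.13 and 2.13 ± 0.10 in siH19 cells (limma adjusted p between 8.5e-06 and 2.9e-05). *Zic4* lies head to head with *Zic1* and overlaps it by 3398 bases on the opposite strand. It averaged 0.665 to 1.27 FPKM over the 4 BAT groups and at most 0.0185 FPKM over the vWAT groups, but its BAT libraries spread from 0.270 to 2.05 FPKM, and the split of shared reads between the pair is uncertain.

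*En1* encodes a homeobox factor that marks the central dermomyotome (chromosome 1, 120602418 to 120607992, plus strand). It was above 1 FPKM in every library of both depots. BAT siCtrl libraries held 10.1, 8.34 and 9.33 FPKM at d0 and 4.05, 3.86 and 3.96 FPKM at d3, and vWAT siCtrl libraries 1.51, 1.57 and 1.67 FPKM at d0 and 1.92, 1.84 and 2.38 FPKM at d3. The mean in BAT was 5.84 times that in vWAT at d0 and 1.94 times at d3 in siCtrl cells, and 4.12 and 2.64 times in siH19 cells. The log2 difference was 1.99 ± 0.089 at d0 and 0.71 ± 0.094 at d3 in siCtrl cells (limma adjusted p = 1.0e-05 and 0.00063), and 1.65 and 1.03 in siH19 cells.

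*Meox2* encodes a homeobox factor of the somites and limb muscle (chromosome 12, 37108540 to 37179534, plus strand). BAT siCtrl libraries were at 4.64, 3.33 and 4.55 FPKM at d0 and at 1.80, 1.40 and 1.61 FPKM at d3, and the 12 vWAT libraries lay between 0.0340 and 0.624 FPKM. The difference was 2.18 ± 0.12 at d0 and 1.00 ± 0.11 at d3 in siCtrl cells, and 1.81 ± 0.12 and 0.95 ± 0.14 in siH19 cells (limma adjusted p between 2.8e-05 and 0.0013). Its relative *Meox1* averaged 4.65 FPKM in BAT and 0.642 FPKM in vWAT (siCtrl, d0).

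*Tbx5*, a T-box factor of the forelimb and the heart (chromosome 5, 119832668 to 119885219, plus strand), was the faintest of the BAT genes. It was at 0.505, 0.593 and 0.731 FPKM in BAT siCtrl libraries at d0 and at 1.40, 0.866 and 1.43 FPKM at d3, and it was listed at 0 in all 12 vWAT libraries. With 2 of 6 libraries at or above 1 FPKM at d3 and none at d0 it was not tested between depots, and without a filter the differences in siCtrl cells were 0.68 at d0 and 1.15 at d3 (limma adjusted p = 0.00066 and 0.00066). A 0 in this table was not read as absence. Over the 24 libraries, 100 genes with a median of at least 5 FPKM were listed at 0 in some library. These may include genes restricted to a depot or group, so that their number does not tell how reliable a 0 is.

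**Figure D2:**
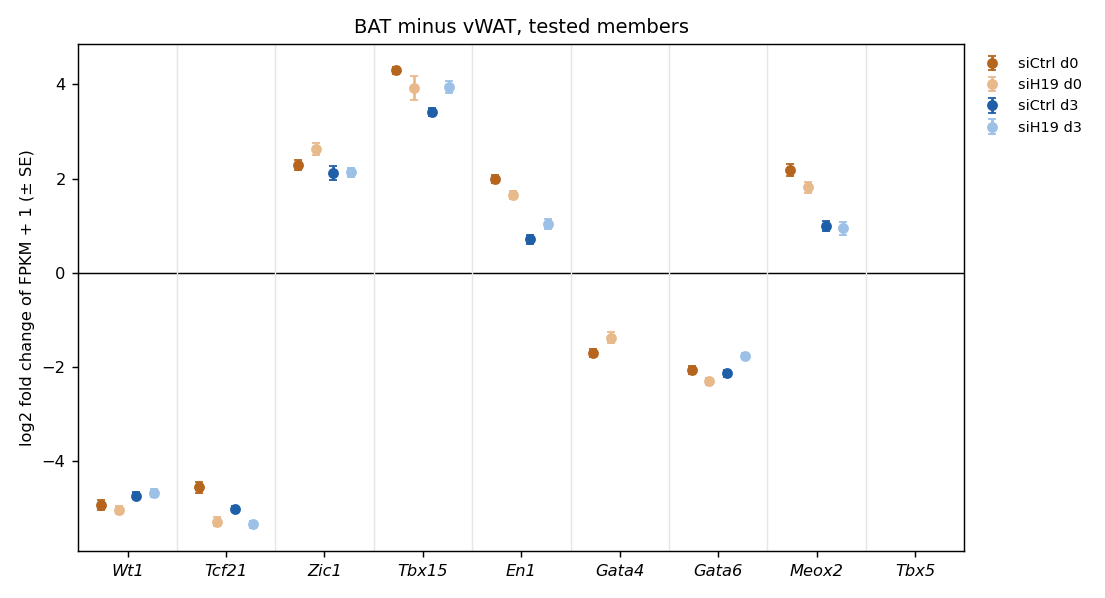
Difference between depots (BAT minus vWAT) in log2(FPKM + 1) with its SE for the members that passed the filter, in siCtrl and siH19 cells at d0 and d3 (4 comparisons, 6 libraries each). *Tbx5*, and *Gata4* at d3, were not tested. *En1* and *Meox2* differed less at d3 (0.71 and 1.00 in siCtrl cells) than at d0 (1.99 and 2.18).

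Related factors of the same families split between depots in both directions. Of 22 relatives, 8 were tested in siCtrl cells at d0, with 2 higher and 2 lower in BAT and a median log2 difference of -0.13, as over all genes (-0.13). Of all genes tested there, 10.2% were higher and 21% lower in BAT. *Meox1* (log2 difference 1.79) and *Tbx18* (0.84) were higher in BAT. *Gata5*, a GATA factor of heart and mesothelium, averaged 2.05 FPKM in vWAT and 0.00956 FPKM in BAT (-1.58), and *Gata2*, which restrains adipocyte formation, 21.95 and 8.68 FPKM (-1.26). *Tbx3*, a limb and heart factor, and *Gata3* were not called, with 5.73 against 7.37 FPKM and 1.06 against 1.29 FPKM. *Zic2* averaged at most 0.0544 FPKM in the 4 siCtrl groups. *Gata5* passed the filter through vWAT alone and so had to differ.

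Of the visceral and lateral plate factors, 6 of 13 were tested in siCtrl cells at d0, with 5 lower and 1 higher in BAT (median -1.28). Of all genes tested there, 21% were lower and 10.2% higher in BAT (median -0.13). *Bnc1*, a mesothelial zinc finger factor, averaged 7.58 FPKM in vWAT and was listed at 0 in BAT. *Nr2f2* (40.2 against 12.6 FPKM), *Nr2f1* (15.2 against 5.12) and *Hand2* (1.32 against 0.0551), factors of visceral and lateral mesoderm, were also higher in vWAT. The exception was *Foxf2*, at 2.46 FPKM in BAT and 0.903 FPKM in vWAT, a gene named here after its value was seen. At d3 the 6 tested genes of this list were called lower in BAT, with a median of -1.63, where 32.1% of all genes were lower. *Bnc1* and *Hand2* passed the filter at d0 through vWAT alone and so had to differ, and the counts only describe the list.

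Of the somite and dermomyotome factors, 11 of 20 were tested at d0, 6 higher and 2 lower in BAT (median 0.74), and of the limb and body wall factors 11 of 18, 8 higher and 1 lower (median 0.96). *Shox2*, a homeobox gene of the proximal limb, had the largest difference among them (3.41), at 10.7 FPKM in BAT and 0.0788 FPKM in vWAT. *Ebf3*, *Six2* and *Foxc1*, with 7.345, 2.815 and 7.73 FPKM in BAT, and *Irx5* and *Irx3*, with 2.07 and 3.28 FPKM, were higher in BAT too (log2 differences between 1.195 and 1.96). *Six2* was listed at 0 in the vWAT siCtrl libraries. At d3 the medians of the 2 lists were 0.30 and 0.10, with 4 higher and 2 lower in BAT in either list. Of all genes tested, 10.2% were higher and 21% lower in BAT at d0, and 16.5% and 32.1% at d3. *Shox2* and *Six2* passed the filter at d0 through BAT alone and so had to differ, and the counts only describe the lists.

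Of 15 binding partners and co-regulators, such as the Fog protein gene *Zfpm2*, the E proteins and the Id inhibitors, all were tested at d0, 3 higher and 5 lower in BAT with a median of -0.11. Among all genes tested there, 10.2% were higher and 21% lower in BAT (median -0.13), and the counts only describe the list. *Id4* (1.58), *Basp1*, which binds the Wt1 protein (0.81), and *Tle2* (0.72) were higher in BAT and *Zfpm2*, a cofactor of Gata proteins, lower (-0.95). *Tle2* lost its call without BAT siCtrl d0 replicate 1 or vWAT siCtrl d0 replicate 3 (0.65 and 0.68, adjusted p = 0.053 in both).

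Markers of other cell types differed between the depots along with the members. Summed over 11 mesothelial genes, vWAT siCtrl libraries held 239 to 282 FPKM and BAT siCtrl libraries 12.6 to 13.4 FPKM at d0, and in the latter *Upk3b*, *Upk1b*, *Krt8*, *Muc16* and *Bnc1* were listed at 0. Of these genes 10 were tested, all lower in BAT (median -4.03), with *Upk1b* (84.4 FPKM), *Upk3b* (38.0), *Lrrn4* (36.0) and *Krt18* (23.2) furthest apart. Summed over 5 skeletal muscle genes, BAT libraries held 19.4 to 61.7 FPKM over its 4 groups and vWAT libraries at most 0.0700 FPKM. *Myh3*, *Myog*, *Myod1* and *Ckm* averaged 15.3, 14.3, 3.47 and 2.95 FPKM in BAT siCtrl cells at d0, and *Myog* was listed at 0 in all 12 vWAT libraries. The tested mesothelial genes other than *Krt19* and *Cldn15* passed the filter through vWAT alone and the tested muscle genes through BAT alone, so that, as for the members, they had to differ and their counts support nothing. The part of mesothelial and muscle cells in the depot difference of the members was not tested.

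The remaining lists were mixed, in a comparison where 10.2% of all genes were higher and 21% lower in BAT at d0. Of 11 adipocyte precursor markers 3 were higher and 6 lower in BAT at d0, led by *Cd24a*, *Cd34*, *Pi16* and *Pdgfra*, all lower in BAT, with *Pdgfra* at 50.1 FPKM in BAT and 114.6 FPKM in vWAT. Of 10 tested adipocyte markers (11 listed) 5 were lower, led by *Retn*, *Pnpla2*, *Lipe* and *Cd36*, and of 5 tested brown adipocyte markers (9 listed) *Cox8b* and *Prdm16* were higher and *Dio2* lower in BAT. *Dio2* lost its call with all 24 libraries in the fit (adjusted p = 0.11). *Ucp1*, the defining gene of mature brown fat, was listed at 0 in all 12 vWAT libraries, and brown adipocyte markers summed to 11.1 to 14.0 FPKM in BAT and 17.4 to 23.5 FPKM in vWAT siCtrl cells at d0 and to 837 to 959 and 156 to 174 FPKM at d3. Of 6 immune markers 5 were lower in BAT, led by *Cd52*, *Cd68*, *Lyz2* and *Csf1r*, and of 5 tested endothelial markers (6 listed) *Kdr* was lower. Of 6 smooth muscle and pericyte markers 4 were higher, among them *Cnn1*, *Acta2* and *Tagln*, and of 4 Schwann cell markers the 1 tested, *S100b*, was higher. *Des*, an intermediate filament gene of muscle, was lower in BAT (-0.61, adjusted p = 0.029), a call lost without a filter, after trimmed mean scaling, or without BAT siCtrl d0 replicate 1 or 3 or vWAT siCtrl d0 replicate 1 or 3 (-0.46 to -0.64, adjusted p between 0.063 and 0.087).

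**Figure D3:**
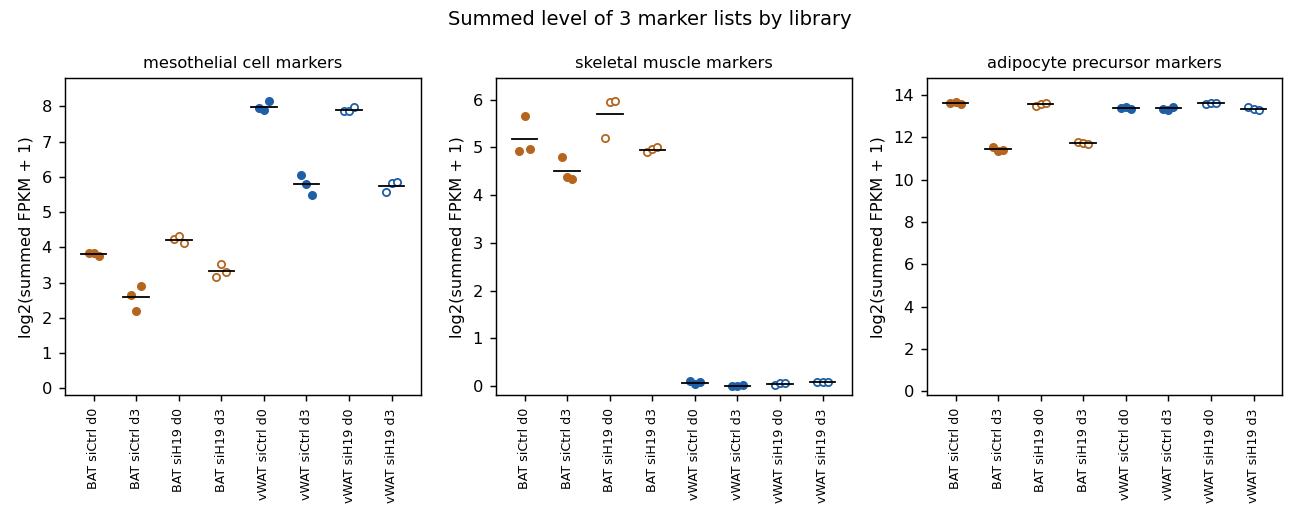
FPKM summed over 11 mesothelial, 5 skeletal muscle and 11 adipocyte precursor genes in the 24 libraries, as log2(sum + 1), with points for libraries (brown BAT, blue vWAT, open siH19) and bars for the mean of 3. In vWAT siCtrl cells the mesothelial sum fell from 239 to 282 FPKM at d0 to 44.0 to 66.0 FPKM at d3, and the muscle sum was near 0 in all vWAT libraries.

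During differentiation the members changed to different degrees. Between d0 and d3, 4 of 5 tested members fell in BAT siCtrl cells and 3 of 5 in BAT siH19 cells, and 2 of 5 fell in vWAT siCtrl cells and 3 of 5 in vWAT siH19 cells, and none rose. Over all genes 65.2% were called in BAT siCtrl cells (29.9% higher and 35.3% lower at d3), 60.6% in BAT siH19 cells (30.8% and 29.8%), 50.3% in vWAT siCtrl cells (26.3% and 23.9%) and 52.7% in vWAT siH19 cells (28.2% and 24.5%). With 5 members tested in each, the counts are given as a description.

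In BAT siCtrl cells *Meox2* at d3 stood at 38.4% of its mean at d0 (-0.98 ± 0.13), *En1* at 42.8% (-1.04 ± 0.085), *Tbx15* at 54.0% (-0.83 ± 0.062) and *Gata6* at 68.2% (-0.47 ± 0.079), with limma adjusted p-values of 0.00042, 3.4e-05, 2.1e-05 and 0.0015. The 3 libraries of d3 lay below the 3 of d0 for each of these genes. *Zic1*, at 79.8% of d0, had overlapping groups (-0.27 ± 0.15, adjusted p = 0.14), and was called without BAT siCtrl d3 replicate 1 (-0.44, adjusted p = 0.0099). In siH19 cells *En1* (50.6% of d0) and *Meox2* (55.7%) fell, while the lower value of *Tbx15* (76.5%, -0.37 ± 0.15, adjusted p = 0.056) was not called. *Gata6* stood at 104% of d0 there (0.044 ± 0.075, adjusted p = 0.62). *Zic1* fell in siH19 cells (-0.50 ± 0.14, adjusted p = 0.016), a call lost without BAT siH19 d0 replicate 1 or 3 or BAT siH19 d3 replicate 2 (-0.40, -0.46 and -0.42, adjusted p between 0.051 and 0.053), and *Tbx15* was called without BAT siH19 d0 replicate 3 (-0.46, adjusted p = 0.041). *Tbx5* went the other way in value, from 0.610 ± 0.114 to 1.23 ± 0.318 FPKM in siCtrl and from 0.397 ± 0.0652 to 0.999 ± 0.397 FPKM in siH19 cells (SD, n = 3), with no overlap between days. It did not pass the filter, and without one the rise was 0.46 (limma adjusted p = 0.033) and 0.50 (0.057).

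Beside these falls, the 11 adipocyte precursor genes of BAT siCtrl cells at d3 summed to 21.2% of their median sum at d0, contractile genes to 14.4%, skeletal muscle genes to 65.4% and adipocyte markers to 1190%, and the part of this shift in cell state or cell types in the members' falls was not tested. Of the limb and body wall factors 8 of 10 tested fell and none rose (median -0.68), of the somite factors 6 fell and 3 rose of 11 (median -0.51), and of the visceral and lateral plate factors 2 fell and 1 rose of 4, where 35.3% of all genes fell and their median was -0.10.

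In vWAT, *Tcf21* was level in siCtrl cells, with 99.2% of d0 left at d3 (-0.011 ± 0.044, adjusted p = 0.83). *Wt1* stood at 81.5% of d0 with no overlap between days (-0.28 ± 0.061, limma adjusted p = 0.0056), which is short of the minimum fold change, and at 74.9% in siH19 cells, where it was called (-0.40 ± 0.054, adjusted p = 0.00059). Without vWAT siH19 d3 replicate 2 its change was -0.38, also short of that fold. *Gata6* fell to 74.9% in siCtrl and 70.1% in siH19 cells (-0.40 ± 0.082 and -0.49 ± 0.070, adjusted p = 0.0049 and 0.00081), and its siCtrl change missed the fold without vWAT siCtrl d0 replicate 3 (-0.32) or vWAT siCtrl d3 replicate 3 (-0.36). *Gata4*, with the steepest fall of the members in vWAT, went to 27.5% in siCtrl and 40.8% in siH19 cells (-1.05 ± 0.10 and -0.69 ± 0.091, adjusted p = 0.00015 and 0.00054). It was at or above 1 FPKM at d0 only, so that passing the filter implied a fall.

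The mesothelial markers of vWAT fell over the same days, to 22.4% of their median sum in siCtrl and 23.8% in siH19 cells, and all 10 tested genes of the list were called lower at d3 (median -1.96 and -1.73). *Gata5*, listed with the GATA family, went from 2.05 to 0.554 FPKM and *Bnc1* from 7.58 to 2.49 FPKM in siCtrl cells. The adipocyte precursor sum of vWAT cells at d3 was 97.1% of that at d0 in siCtrl and 82.3% in siH19 cells. A sum follows its most abundant genes, and of the 11 genes 6 were called lower and 2 higher in siCtrl cells (median -0.46). Of all genes there, 23.9% were lower and 26.3% higher. The part of mesothelial cells in the changes of *Gata4*, *Gata6* and *Wt1* in vWAT was not tested. Among the lateral plate factors 4 of 6 tested rose and 1 fell in vWAT (median 0.76), with *Nr2f2* going from 40.2 to 78.4 FPKM and *Nr2f1* from 15.2 to 23.05 FPKM.

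**Figure D4:**
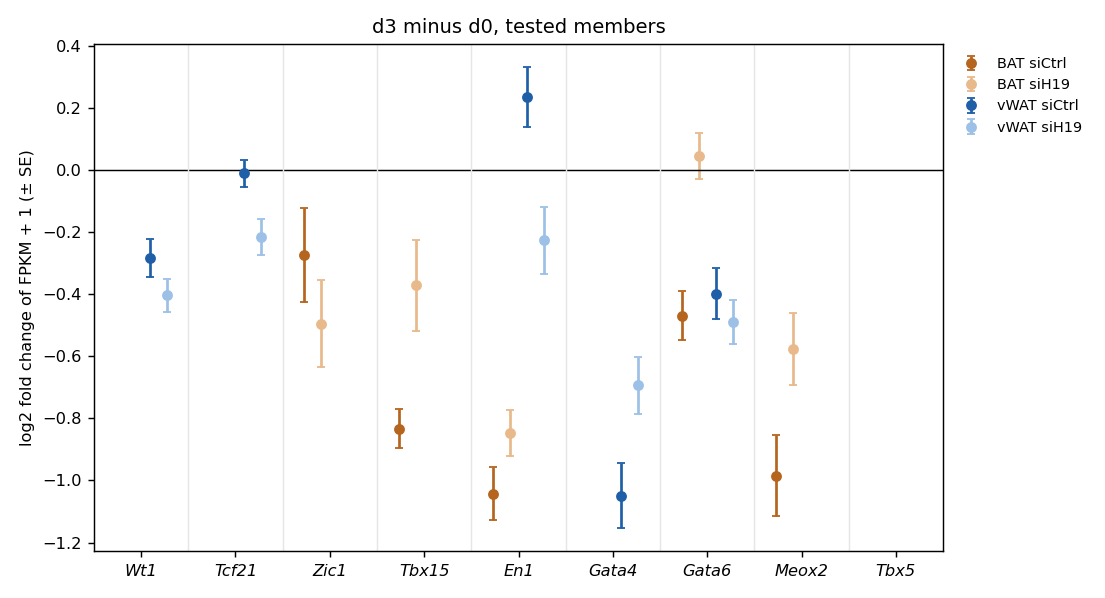
Change from d0 to d3 (d3 minus d0) in log2(FPKM + 1) with its SE for members that passed the filter in BAT and vWAT cells with siCtrl or siH19 (6 libraries each). *Tbx5* was not tested. In siCtrl cells *En1*, *Meox2* and *Tbx15* of BAT lay between -0.83 and -1.04 and *Gata4* of vWAT at -1.05, while *Tcf21* of vWAT lay at -0.011.

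Whether the change from d0 to d3 differed between the depots was tested as an interaction in the 12 siCtrl libraries, where 53% of all genes were called. The change of *En1* was lower in BAT than in vWAT (difference of the log2 changes, BAT minus vWAT, -1.28 ± 0.12, limma adjusted p = 6.9e-06), where it was 0.24 ± 0.096 (adjusted p = 0.068). The same direction held for *Meox2* (-1.18 ± 0.16, adjusted p = 0.00013) and *Tbx15* (-0.89 ± 0.089, adjusted p = 1.0e-05), which were near 0 in vWAT on both days. *Gata4* differed the other way (1.09 ± 0.15, adjusted p = 0.00015), being near 0 in BAT at both days. The difference for *Tcf21* (-0.46 ± 0.13, adjusted p = 0.012) rested on BAT values under 1 FPKM, which went from a mean of 0.611 to 0.150 FPKM. *Wt1*, *Zic1* and *Gata6* were not called (0.19 ± 0.12, -0.17 ± 0.19 and -0.070 ± 0.11). For genes near 0 in either depot this test says little, because a gene at the floor cannot fall further.

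Few members were called between siH19 and siCtrl cells, none of them on both days of a depot, and the calls were unstable, as given below. No member was called among 5 tested in BAT at d0 and among 4 in vWAT at d3, 1 of 6 was called in BAT at d3 and 1 of 5 in vWAT at d0. Of all genes 1.94% were called in BAT at d0, 8.57% in BAT at d3, 1.53% in vWAT at d0 and 0.0305% in vWAT at d3. With 4 to 6 members tested in each, the counts are given as a description.

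*Tbx15* was higher in siH19 than in siCtrl cells of BAT at d3, with 17.4, 17.3 and 12.7 against 11.3, 10.4 and 11.4 FPKM (0.47 ± 0.12, limma adjusted p = 0.049). The call was lost without a filter (adjusted p = 0.11), after trimmed mean scaling (0.069), without the intensity trend (0.062), and on leaving out each library in turn except BAT siH19 d3 replicate 3, with changes of 0.40 to 0.49 and adjusted p-values of 0.098 to 0.15. Without that replicate the change was 0.61 (adjusted p = 0.013). At d0 the corresponding change of *Tbx15* was 0.0076 ± 0.098 (20.4, 23.6 and 18.01 against 20.3, 19.7 and 21.3 FPKM). Marker sums also differed between siH19 and siCtrl cells of BAT at d3. Their medians were 562 against 917 FPKM for brown adipocyte, 3336 against 2694 FPKM for precursor and 1089 against 512.5 FPKM for smooth muscle and pericyte markers. The part of this difference in cell state or cell types in the values of the members was not tested.

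*Tcf21* was higher in siH19 cells of vWAT at d0, with 52.0, 46.4 and 47.8 against 36.6, 36.3 and 37.4 FPKM (0.40 ± 0.056, limma adjusted p = 0.024). The groups were well apart, but the call was lost without a filter (adjusted p = 0.055) and whichever of the 6 libraries was left out (0.35 to 0.43, adjusted p between 0.059 and 0.11). At d3 the values were 41.6, 43.2 and 40.5 against 35.3, 36.7 and 37.5 FPKM (0.19 ± 0.046, adjusted p = 0.34), again with no overlap. Adipocyte markers of vWAT at d0 had a median sum of 2914 FPKM in siH19 and 4622 FPKM in siCtrl cells. The part of this difference in the value of *Tcf21* was not tested.

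The other values were as follows. *Gata6* in BAT was lower at d0 (-0.25 ± 0.071, adjusted p = 0.12) and higher at d3 (0.26 ± 0.083, adjusted p = 0.079) in siH19 cells with no overlap on either day, and neither was called. *Meox2* in BAT at d0 averaged 2.92 ± 0.397 FPKM in siH19 and 4.17 ± 0.733 FPKM in siCtrl cells (SD, n = 3, limma adjusted p = 0.19), and was called with all 24 libraries in the fit (-0.40, adjusted p = 0.046). *En1* and *Gata4* in vWAT at d0 (0.30 ± 0.092 and -0.29 ± 0.091, adjusted p = 0.18 in both) did not overlap either. *Wt1* in vWAT changed by 0.027 ± 0.060 at d0 and -0.093 ± 0.053 at d3, and *Zic1* in BAT by 0.24 ± 0.13 and 0.019 ± 0.16. The SE of these changes, 0.046 to 0.19 on the log2 scale, sets what could be seen with 3 libraries in a group. For groups of 3 libraries, here and between days, the share of all genes without overlap was not computed. A lack of overlap only describes the values.

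**Figure D5:**
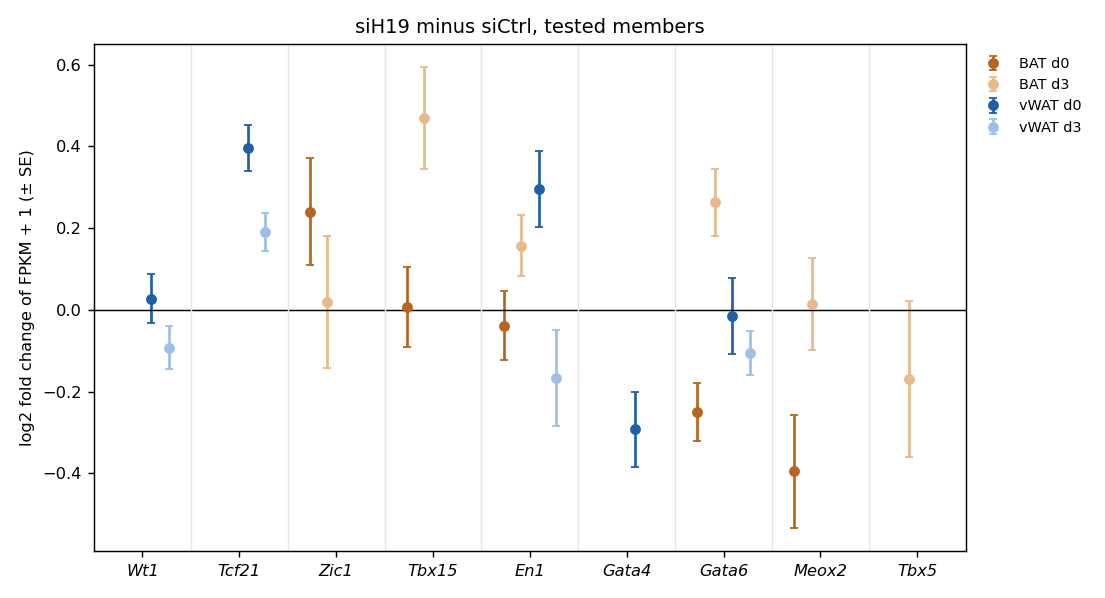
Effect of *H19* silencing (siH19 minus siCtrl) in log2(FPKM + 1) with its SE for members that passed the filter in BAT and vWAT at d0 and d3 (6 libraries each). Effects lay between -0.40 and 0.47, with *Tbx15* of BAT at d3 (0.47) and *Tcf21* of vWAT at d0 (0.40) the called ones.

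The effect of siH19 at d3 was compared between depots in 12 libraries, where 10.5% of all genes were called. *Gata6* differed (0.37 ± 0.085, adjusted p = 0.023), with a rise in value in BAT and a change of -0.11 ± 0.054 in vWAT, and *Tcf21* differed (-0.33 ± 0.083, adjusted p = 0.032), with a higher value in siH19 cells of vWAT while BAT was at 0.150 FPKM or less in the mean. *Tbx15* did not pass (0.53 ± 0.15, adjusted p = 0.053). These calls were unstable. That of *Gata6* was lost without BAT siH19 d3 replicate 1, vWAT siCtrl d3 replicate 2 or vWAT siH19 d3 replicate 1 or 2 (adjusted p between 0.051 and 0.054), and that of *Tcf21* without a filter, with all 24 libraries in the fit (0.086), and on leaving out each of 10 of the 12 libraries (0.052 to 0.083).

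The genes whose pattern over the 24 libraries was most like that of each member were taken from 12566 named genes by Pearson r of log2(FPKM + 1). Libraries of a depot share tissue, medium and sample series, so that these r describe mainly the depot difference. For *Wt1* they were *Calca*, the gene of the peptide CGRP (r = 0.998), *Slmapos2* (0.996) and *Tcf21* (0.996), and for *Tcf21* they were *Wt1*, *Calca* (0.995) and *Prss35* (0.992). *Calca* averaged 268.1 FPKM in vWAT and 1.445 FPKM in BAT (siCtrl, d0) and was at 292.0 FPKM in vWAT at d3. Among the 3 genes most like *Gata6* was *Serpinb6b* (0.990). *Gata4* was closest to *Star*, the cholesterol carrier of steroid-making cells (0.983), *Cldn3*, a tight junction gene (0.983), and *Tmem108* (0.982), and *Star* averaged 81.4 FPKM at d0 and 5.975 FPKM at d3 in vWAT siCtrl cells.

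On the BAT side, *Zic1* and *Tbx15* were closest to genes of skeletal muscle. For *Zic1* these were *Myog* (r = 0.988), *Myh3* (0.988) and *Tmem8c*, the myoblast fusion gene myomaker (0.987), and for *Tbx15* they were *Myh3* (0.988), *Myh1* (0.987) and *Myog* (0.986). *En1* was closest to *Cyp26b1*, which degrades retinoic acid (0.978), *Thbs4* (0.977) and *Qsox2* (0.974), and *Meox2* to *Comp* (0.978), *Thbs4* (0.978) and *Six2* (0.972). *Thbs4* and *Comp*, matrix genes of tendon and cartilage, averaged 18.4 and 16.9 FPKM in BAT and 0.127 and 0.107 FPKM in vWAT (siCtrl, d0). *Tbx5* was closest to *Lmo4* (0.947), *Adrb1*, the β1-adrenergic receptor gene (0.943), and *Arhgap5* (0.939). *Arhgap5* differed by 0.42 between depots at d0, and by less than the minimum fold (0.36) without BAT siCtrl d0 replicate 3.

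Neighbours in the genome (GENCODE M21, GRCm38) were compared where a gene of the table lay within 100 kb of a member. *Agmo*, 62107 bases after *Meox2*, was higher in BAT (2.03 against 0.863 FPKM, log2 difference 0.70 in siCtrl cells at d0), whereas *Wars2*, 1195 bases before *Tbx15*, did not differ beyond the spread (3.31 against 3.19 FPKM, adjusted p = 0.86), nor did *Tbpl1*, 85343 bases before *Tcf21* (25.6 against 29.25 FPKM, adjusted p = 0.16). *Marco*, a macrophage receptor gene 97394 bases before *En1*, was lower in BAT (-1.28), opposite to *En1*. *Gm43050*, a noncoding gene that ends 748 bases before *Tbx5* on the other strand, was at 0.392 FPKM in BAT siCtrl cells at d0 and at 0 in vWAT. At d3 it was at 0.656 to 0.740 FPKM in BAT siCtrl and at 2.09 to 3.79 FPKM in BAT siH19 libraries (1.13 ± 0.17, limma adjusted p = 0.0082), where *Tbx5* was at 0.866 to 1.43 and 0.541 to 1.24 FPKM (-0.17 ± 0.19, adjusted p = 0.59). In that comparison *Gm43050* was at or above 1 FPKM in siH19 libraries only, so that passing the filter implied a rise. *Them7* after *Wt1* and *Neil2* before *Gata4* were under 1 FPKM in the mean of each siCtrl group, and *A730094K22Rik*, *Gm43120*, *2610027F03Rik*, *Gm29007* and *Gm43269* were listed at 0 in the 12 siCtrl libraries. *Gm43120* overlaps *Tbx15* by 6588 bases on the opposite strand and reached 0.308 FPKM in BAT siH19 libraries.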

How the data were processed

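RNA of 24 libraries was sequenced by the study, per the labels after poly(A) enrichment with a directional kit and in paired-end mode. The study's methods name a kit without that word and single-end reads, and another Cufflinks version than the processing notes, and which applied was not settled here. Per the labels and the study's methods, the authors deposited one table of FPKM values made with Cufflinks (2.2.1 in the submitters' processing notes, which also list FastQC 0.10.1, TopHat2 2.0.10, STAR, DESeq2 and R 3.2.2) on GRCm38. The header does not name the unit, which was read from the study's legends and the values. The mapping of columns to libraries used the labels, with 0 columns unmapped. Read numbers per library and the use of strand in counting are not given in the sources used here. FPKM is a share of each library, so a few abundant genes lower all others.

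From the deposited FPKM, log2(FPKM + 1) was fitted with limma 3.58.1 (R 4.3.3, moderated statistics with an intensity trend, two-sided) in the 6 libraries of a comparison or the 12 of an interaction, for genes with at least 1 FPKM in at least 3 libraries. Fold changes on this scale understate the change of low genes. A call needed p below 0.05, adjusted by Benjamini and Hochberg over all genes tested, and 1.3-fold, interactions without a minimum fold. The code was tested on simulated data. Locations are those of the table, checked against GENCODE M21. They differed for *Gata6* and for *Tcf21*, which lies at 22817281 to 22820174 in GENCODE M21. Distances to neighbours were taken from the GENCODE coordinates.

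The members and the lists were chosen with earlier results of these data known. Named were all members, up to 4 genes per list with the largest called difference between depots in siCtrl cells at d0 with groups that do not overlap, the 3 genes most like each member (FPKM of at least 1 in at least 3 libraries), the nearest neighbours within 100 kb, and *H19*. The lists were relatives of the members, binding partners, visceral, somite and limb factors, and markers of mesothelium, precursors, adipocytes, brown adipocytes, endothelium, immune cells, smooth muscle, skeletal muscle and Schwann cells. *Zfpm1*, *Foxf1*, *Foxc2* and *Acta1* were not analysed here, and a few genes that the rule names are not reported here. Replicates correlated at r of 0.974 to 0.981 and no pair of replicates within a group was identical. Alternatives were a pseudocount of 0.1, no filter, trimmed mean scaling, all 24 libraries in the fit, a replicate block, no intensity trend, no minimum fold and leaving out each library.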

Additional observations from a re-analysis of the deposited data

Results flagged for a closer look

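The change from d0 to d3 in siCtrl cells differed between the depots for 5 of 8 genes tested, where 53% of all genes were called, by an interaction term (BAT minus vWAT, log2 scale, limma). The difference was -1.28 for *En1* (adjusted p = 6.91e-06), -1.18 for *Meox2* (0.000125), -0.89 for *Tbx15* (1.04e-05), 1.09 for *Gata4* (0.000145) and -0.46 for *Tcf21* (0.0120). *Meox2*, *Tbx15*, *Gata4* and *Tcf21* each had a mean under 1 FPKM in one depot on both days, so that the test says little for them. *En1* was above 1 FPKM in every library. The count of genes is given as a description.

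Among 8 genes tested, and with 10.5% of all genes called, the effect of siH19 at d3 differed between the depots for *Gata6* (0.37, adjusted p = 0.0226) and *Tcf21* (-0.33, adjusted p = 0.0318). Within a depot, siH19 and siCtrl cells did not pass the threshold for either gene at d3. The call of *Gata6* was lost on leaving out each of 4 libraries (adjusted p between 0.051 and 0.054), and that of *Tcf21* without a filter (0.054), with all 24 libraries in the fit (0.086) and on leaving out each of 10 of the 12 libraries (0.052 to 0.083).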

How the results depend on the processing

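Of 1126 recomputed values of single genes 1048 kept their direction and side of the threshold, 40 lost and 7 gained a call and 31 changed sign. The depot differences of the members tested kept direction and call in all alternatives that tested them (highest adjusted p 0.00763). Leaving out a library reduced the called members from 8 to 5 (siCtrl d0), 7 to between 4 and 5 (siCtrl d3), 8 to between 5 and 6 (siH19 d0) and 7 to between 4 and 5 (siH19 d3), because a gene high in 1 depot then cannot reach the filter in 3 libraries. With a filter of 2 libraries, chosen after seeing the data, they were 8, 7 to 8, 8 and 7 to 8. The d3 count in vWAT siCtrl cells was 0 to 2 when a library was left out (1 to 2 with that filter).

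The siH19 counts were less stable. In BAT at d0 the count was 1 with all 24 libraries in the fit (518 genes called in all, against 245). In BAT at d3 it was 0 without a filter, with trimmed mean scaling, with the replicate block and without the intensity trend, and 0 to 1 when a library was left out. In vWAT at d0 it was 0 without a filter (70 genes in all, against 200) and with the replicate block (2 in all), and 0 whichever library was left out. For the effect of siH19 between depots it was 1 without a filter, with all 24 libraries and with the replicate block, and 0 to 3 when a library was left out. The cause was not tested. Replicate numbers did not pair the libraries (r of deviations -0.113 to 0.0616, 0 of 12 comparisons with every pair above 0.1), and with the replicate block *Tbx15* had an adjusted p of 0.0852 and *Tcf21* of 0.0924 in those siH19 comparisons and 0.0644 between depots.

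Some values changed sign, none of them called. With trimmed mean scaling the siH19 change was -0.020 for *Zic1* and -0.018 for *Meox2* in BAT at d3 and 0.031 for *Gata6* in vWAT at d0, the depot by day value of *Gata6* was 0.0095 and the depot by siRNA value of *Zic1* -0.020. With a pseudocount of 0.1 the depot by day values of *Wt1* and *Zic1* were -0.089 and 0.31, and the depot by siRNA value of *Wt1* -0.17. Leaving out a library gave -0.096 to 0.17 for *Wars2* between depots, -0.031 to 0.012 for *Tcf21* over days in vWAT siCtrl cells, and for siH19 -0.087 to 0.098 (*Tbx15*) and -0.10 to 0.019 (*En1*) in BAT at d0, -0.080 to 0.18 (*Zic1*), -0.054 to 0.069 (*Meox2*) and -0.29 to 0.0072 (*Tbx5*) in BAT at d3, and -0.0079 to 0.079 (*Wt1*) and -0.075 to 0.062 (*Gata6*) in vWAT at d0. Between depots the siH19 effect was -0.080 to 0.18 for *Zic1*, -0.12 to 0.080 for *Meox2* and -0.29 to 0.0072 for *Tbx5*. With trimmed mean scaling the share of called genes that rose moved from 74.6% to 60.7% for siH19 in BAT at d3, from 21.5% to 35.4% in vWAT at d0 and from 66.6% to 49.8% between depots. Read depth is unknown, so genes under 1 FPKM carry an unknown counting error.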
